A study of Gallus gallus with 2 samples.

Results

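The regions described here are the CTCF peaks on the Z chromosome of chicken red blood cells. They are all rows of the deposited peak lists whose sequence name is Z, and no measured value entered the choice. Z held 279 of the 5830 peaks in the list of the library labelled 5 days and 993 of the 21358 peaks in the list of the library labelled 10 days, which makes 1272 of 27188 peaks in all. Both libraries came from Gallus gallus red blood cells by chromatin immunoprecipitation with an antibody to CTCF, and the compared ages are given as 2 stages of development. The labels name no genotype, strain, sex or number of animals, and do not tell embryonic days from days after hatching. The culture and treatment fields, the same for both libraries, describe mononuclear blood cells separated on a density gradient and stimulated with PMA and Io, which is at odds with the cell type field. With peak positions and scores alone, the cell type could not be checked against markers. There was 1 library per age, so no test compares the ages, and peaks of 1 library are not replicates.

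CTCF has a row of zinc fingers that read a long DNA motif and, together with cohesin, holds the bases of chromatin loops and blocks contacts between enhancers and promoters across insulators. Birds have Z and W sex chromosomes. Males carry a pair of Z chromosomes and females carry a Z and a W, and the expression of Z genes is only partly balanced between the sexes. Z also carries DMRT1, the gene whose dose directs testis formation in birds. Chicken red blood cells keep their nucleus, so their chromatin can be immunoprecipitated. As the sex of the animals is not given in the labels, the number of Z copies per cell and the number of bound sites per copy cannot be told apart in these lists.

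Each deposited peak is 399 bp wide and has a whole-number score given by the authors, whose scale is not given in the sources used here. Positions are those of the deposited files, with the first base counted as 1, and the genome build is likewise not given. Scores on Z ran from 13 to 209 in the 5 day list, with a median of 20 (quartiles 15 and 30), and from 22 to 547 in the 10 day list, with a median of 25 (23 and 29). The lowest score of its list was held by 24 Z peaks at 5 days (8.60%, against 11.3% of the whole list) and by 216 at 10 days (21.8%, against 19.3%). Scores are given below also as percentiles within their own list, the mean rank of tied scores as a share of the list. Percentiles of lists of such different length do not show a change between the ages. Read totals were not used here and the depth is unknown. All intervals are exact 95% intervals that cover counting error only. They take peaks as independent, although peaks on Z were clustered. The variance of counts in 1 Mb bins was 3.46 times their mean at 5 days and 2.43 times at 10 days. The intervals are therefore too narrow, and an interval that leaves out equality is no test.

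Z carried peaks about as densely as the large autosomes in the 5 day list and was the sparsest chromosome in the 10 day list. Lengths were taken up to the last peak end in either list, 74.6 Mb for Z. At 5 days Z held 3.74 peaks per Mb, and chromosomes 1 to 5 together held 3.37, a ratio of 1.11 (interval 0.975 to 1.26) that includes equality. At 10 days Z held 13.3 peaks per Mb against 17.6 on chromosomes 1 to 5, a ratio of 0.758 (0.709 to 0.809). Among the 28 assigned chromosomes spanning at least 1 Mb, Z was the fifth sparsest at 5 days and the sparsest at 10 days. At 10 days its ratio to each large autosome lay below 1 with its whole interval, from 0.682 (0.627 to 0.743) against chromosome 5 to 0.796 (0.740 to 0.857) against chromosome 2. At 5 days the ratio was 1.38 against chromosome 2 (1.18 to 1.60) and 0.730 against chromosome 5 (0.619 to 0.859). Against chromosomes 1, 3 and 4 it was 1.15, 1.15 and 1.02, each interval spanning 1. As peaks are clustered, these intervals understate the error of the ratios.

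**Figure D1:**
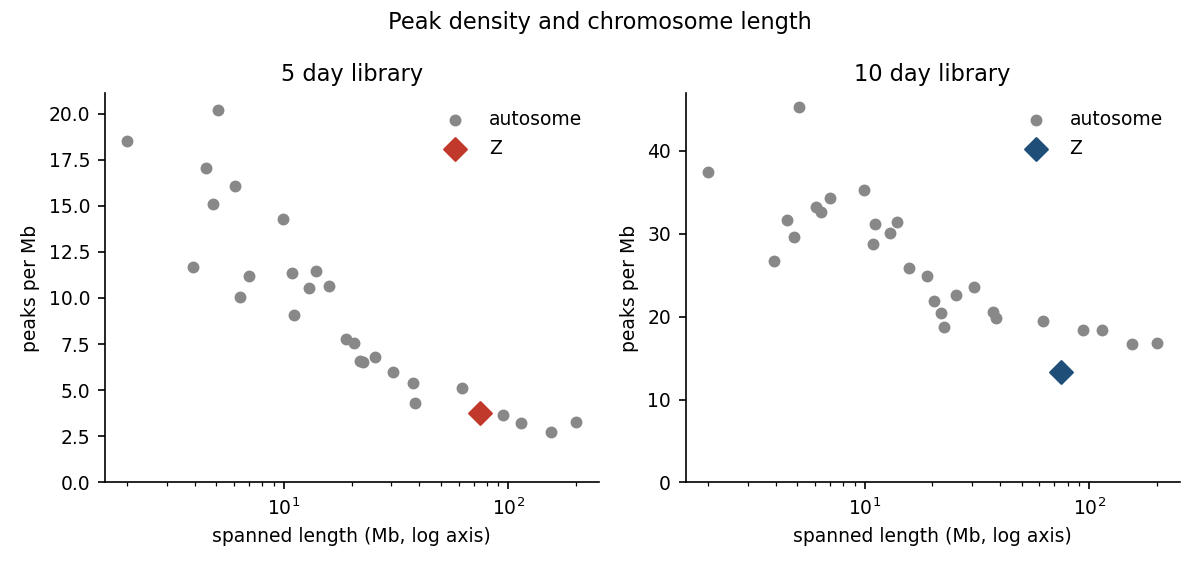
Peaks per Mb (vertical axis) against spanned length in Mb (horizontal log axis) for the 28 assigned chromosomes spanning at least 1 Mb, 5 day library left and 10 day library right. Grey points are autosomes and the diamond is Z, which lies among the large autosomes at 5 days (3.74 per Mb) and below every other chromosome at 10 days (13.3 per Mb).

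Relative to chromosomes 1 to 5, Z was less dense at 10 days in peaks without a 5 day counterpart than in the others. Peaks that a peak of the other age overlaps by 1 bp or more are called shared here, and the others unmatched. Shared 10 day peaks stood at 2.24 per Mb on Z and 1.95 on chromosomes 1 to 5, a ratio of 1.15 (0.972 to 1.35). Unmatched 10 day peaks stood at 11.1 per Mb on Z and 15.6 on chromosomes 1 to 5. Their ratio was 0.709 (0.660 to 0.761). Shared peaks are almost the same positions in both lists, 163 at 5 days and 167 at 10 days on Z. The shared 10 day ratio therefore follows the 5 day list. The unmatched ratio then follows from it and from the ratio of all 10 day peaks. The split is a description and does not locate the low density. At 5 days shared and unmatched peaks gave like ratios, 1.12 (0.949 to 1.32) and 1.09 (0.890 to 1.32). As no input library is given in the sources used here, the part of the unmatched peaks that is background is unknown.

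Relative to the large autosomes, Z was also placed differently along the score range of each list. Each list was divided into 5 classes by score percentile, each 20 percentiles wide. In the highest class of the 5 day list, with scores of 43 to 355 on assigned chromosomes, Z held 26 of 987 peaks, a density 0.551 times that of chromosomes 1 to 5 (0.355 to 0.820). In the second and middle classes of that list the ratios were 1.40 (1.07 to 1.81) and 1.37 (1.07 to 1.74). In the lowest class the ratio was 1.10 (0.797 to 1.48) and in the one below the highest 1.05 (0.771 to 1.39), and both intervals span 1. The 10 day list had another order. Its highest class, with scores of 31 to 816, held 208 Z peaks of 3878 and a density ratio of 0.945 (0.814 to 1.09), while the other 4 classes had ratios from 0.656 (0.575 to 0.746) to 0.809 (0.700 to 0.930). The median score percentile of Z peaks at 5 days was 43.7 (interval of the median 40.7 to 49.1), level with chromosomes 17 and 22 as the lowest of the 28 chromosomes. At 10 days it was 51.0 (40.7 to 51.0), a value shared by most chromosomes because many scores are tied.

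**Figure D2:**
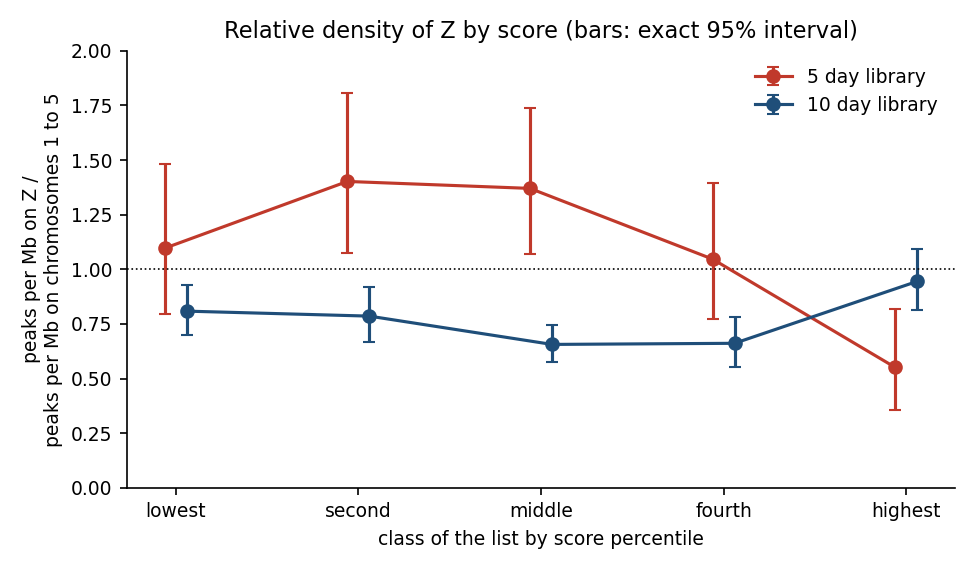
Ratio of the peak density on Z to that on chromosomes 1 to 5 (vertical axis) in 5 classes of each list by score percentile (horizontal axis, lowest at the left); bars are exact 95% intervals. The 5 day ratio falls from 1.37 in the middle class to 0.551 in the highest, and the 10 day ratio is 0.945 in the highest class and lower in the others.

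The 3 strongest CTCF peaks on Z at each age stood within 25.2 kb of sequence and were present at both ages. The highest 5 day peaks were at 27929933 to 27930331 (score 209) and 27929014 to 27929412 (score 185). At 10 days a peak at 27930014 to 27930412 scored 536 and one at 27929017 to 27929415 scored 547, so that the starts of these pairs lay 81 and 3 bp apart. All 4 peaks were above the 99th percentile of their list. Their order was reversed between the ages, by a margin whose error is unknown without replicates.

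The third highest peak of Z at each age stood nearby, at 27953792 to 27954190 with a score of 104 at 5 days and at 27953848 to 27954246 with a score of 299 at 10 days. Weaker peaks, noted after their values were seen, flanked the strongest pair at both ages. They started at 27927984, 27931271 and 27933687 at 5 days, with scores of 16, 13 and 24, and at 27927982, 27931260 and 27933687 at 10 days, with scores of 35, 40 and 34. All 6 positions were therefore found at both ages, with starts 0 to 81 bp apart. In the 1 Mb bin that holds them, from 27000001 to 28000000, all 10 of the 5 day peaks were shared, and 10 of the 19 at 10 days.

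Beyond this group, the highest peaks of the lists were shared but not ranked alike. The fourth 5 day peak, at 34283613 to 34284011, had a score of 100 (percentile 98.2), where the 10 day peak scored 40 (percentile 90.2). The fifth, at 57098757 to 57099155, scored 89, and its 10 day counterpart 45 bp away scored 163, the fifth highest there. The fourth 10 day peak, at 59638197 to 59638595, scored 193, and its 5 day counterpart scored 71 with a start 280 bp away. Overlapping Z peaks that were mutually nearest formed 163 pairs, whose scores had a Spearman correlation of 0.53, given as a description, since all pairs come from the same 2 libraries.

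Peaks on Z were found at the other age about as often as peaks of the whole lists, and these shares depend on list length. At 5 days 163 of 279 Z peaks were shared, 58.4% (52.4 to 64.3), against 57.6% of the whole 5 day list. At 10 days 167 of 993 were shared, 16.8% (14.5 to 19.3), against 15.8% of the whole 10 day list. Both intervals on Z include the share of the whole list. The 10 day list was also limited to about the length of the 5 day list, with ties kept, which left 6731 peaks. The shares on Z were then 48.7% at 5 days and 45.1% at 10 days. Those of the whole lists were not computed at this setting. In the full lists the 10 day share on Z was above that of chromosomes 1 to 5, 11.1% (10.5 to 11.7). The 5 day share there was alike, 57.7% (55.5 to 59.8). A 10 day share depends on how many 5 day peaks there are per 10 day peak. Those counts were 279 and 993 on Z and 2111 and 10996 on chromosomes 1 to 5. The higher 10 day share thus restates these counts and is no sign of better recovery on Z. Recovery on Z went with score: 96.2% (80.4 to 99.9) of the 26 peaks in the highest 5 day class were shared and 38.8% (25.2 to 53.8) of the 49 in the lowest. The lowest class stood higher on Z than on chromosomes 1 to 5, where 17.9% (14.1 to 22.1) were shared. It was 1 of 5 classes, and no better recovery on Z is read from it. The classes above it were alike, with overlapping intervals. From the second class up, 38.0, 63.8, 77.4 and 96.2% were shared on Z and 36.2, 58.8, 80.5 and 92.4% on chromosomes 1 to 5. On Z the lowest class and the one above it were thus level. The highest 10 day class had 58.2% shared (51.2 to 65.0) on Z and 47.9% (45.6 to 50.2) on chromosomes 1 to 5. These intervals do not overlap, but they take clustered peaks, those of the dense windows included, as independent. This share too depends on the 5 day peaks available. There were 279 for the 208 peaks of this class on Z and 2111 for the 1848 on chromosomes 1 to 5. No better recovery on Z is read from it.

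Shared peaks were placed closely, although overlap itself keeps the starts of a pair less than 399 bp apart. In the 163 pairs the starts were a median of 37 bp apart (quartiles 14 and 83), and 3 pairs had the identical position. These were at 21479019 to 21479417 (scores 17 and 30 at 5 and 10 days), at 27933687 to 27934085 (24 and 34) and at 66284291 to 66284689 (14 and 30). All 3 were of low or middle score at 5 days, at percentiles 33.2, 53.6 and 15.2. At 10 days they stood at percentiles 77.8, 85.5 and 77.8. Most pairs on Z, 144 of 163, had the higher percentile in the 10 day list. None of the 3 pairs with the identical position was among the 5 highest peaks of Z at either age. These 3 pairs are too few for a general statement.

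Unmatched Z peaks were mostly weak, and a few lay beside a peak of the other age. Unmatched 5 day peaks had a median score of 17 (quartiles 14 and 21), against 24 (17 and 35) for shared ones. Unmatched 10 day peaks had a median of 24 (23 and 27), against 43 (30 and 66) for shared ones. Of the 116 unmatched 5 day peaks, 20 started within 1 kb of a 10 day peak and 11 lay more than 100 kb from any. Most of these 20 lay in the dense windows described below, which held 16 of the 116. Such distances were not computed for the whole lists. Of the 826 unmatched 10 day peaks, 15 started within 1 kb of a 5 day peak and 496 lay more than 100 kb away. Distances are longer for the 10 day peaks in part by construction, since the 5 day list is the shorter one.

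The highest unmatched 5 day peak, at 63889566 to 63889964, scored 57 and stood 637 bp from a 10 day peak of score 111. The next scored 42 (63710066 to 63710464) and 41 (52764220 to 52764618), followed by peaks at 58144392 to 58144790 with a score of 37 and at 1514951 to 1515349 with a score of 36. These 4 had their nearest 10 day peak 3296 to 25596 bp away. At 10 days the highest unmatched peaks, at 6896175 to 6896573 and 63890633 to 63891031, scored 69 each and started 730 and 546 bp from a 5 day peak. Then came scores of 57 at 71542869 to 71543267, of 55 at 57800774 to 57801172 and of 54 at 65789776 to 65790174. The peak at 57800774 stood apart from any 5 day peak by 343618 bp, the longest such distance among these 10 peaks.

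Along Z, the peaks were unevenly spread, and both lists were fullest in several of the same bins. In 75 fixed bins of 1 Mb the 5 day list had a median of 3 peaks (quartiles 1 and 5, highest 16) and 9 bins without a peak. The 10 day list had a median of 12 (10 and 16, highest 30) and a lowest count of 3. The variance of the bin counts was 3.46 times their mean at 5 days and 2.43 times at 10 days, where independently scattered peaks would have variance and mean alike. With peaks in the dense windows described below left out, these values were 2.03 and 1.96. Those windows were chosen for their many peaks, so this fall is largely by construction. Counts of the 2 ages had a Spearman correlation of 0.58 over the 75 bins, 0.48 without the dense windows and 0.24 between the unmatched peaks of each list, as descriptions of bins that share a sequence and its mappability.

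The fullest 5 day bins were 66000001 to 67000000 with 16 peaks, 7000001 to 8000000 and 63000001 to 64000000 with 15 each, 71000001 to 72000000 with 11, and the first, 1 to 1000000, with 10, level with 27000001 to 28000000. In the first 5 of these bins stood 24.0% of the 5 day Z peaks. The fullest 10 day bins were the first with 30 peaks, 7000001 to 8000000 with 29, 8000001 to 9000000 with 28, and 54000001 to 55000000 and 66000001 to 67000000 with 25 each, together 13.8% of the 10 day Z peaks. The bins starting at 1, 7000001 and 66000001 were in both lists of 5. Their makeup differed. In the first bin 4 of 30 peaks at 10 days were shared, near the 16.8% of all Z and 15.8% of the whole list. In the bin from 66000001 there were 12 of 25, and 11 of these 12 stood in 1 dense window. Both counts are limited by the 5 day peaks of the bins, 10 in the first and 16 in the other.

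**Figure D3:**
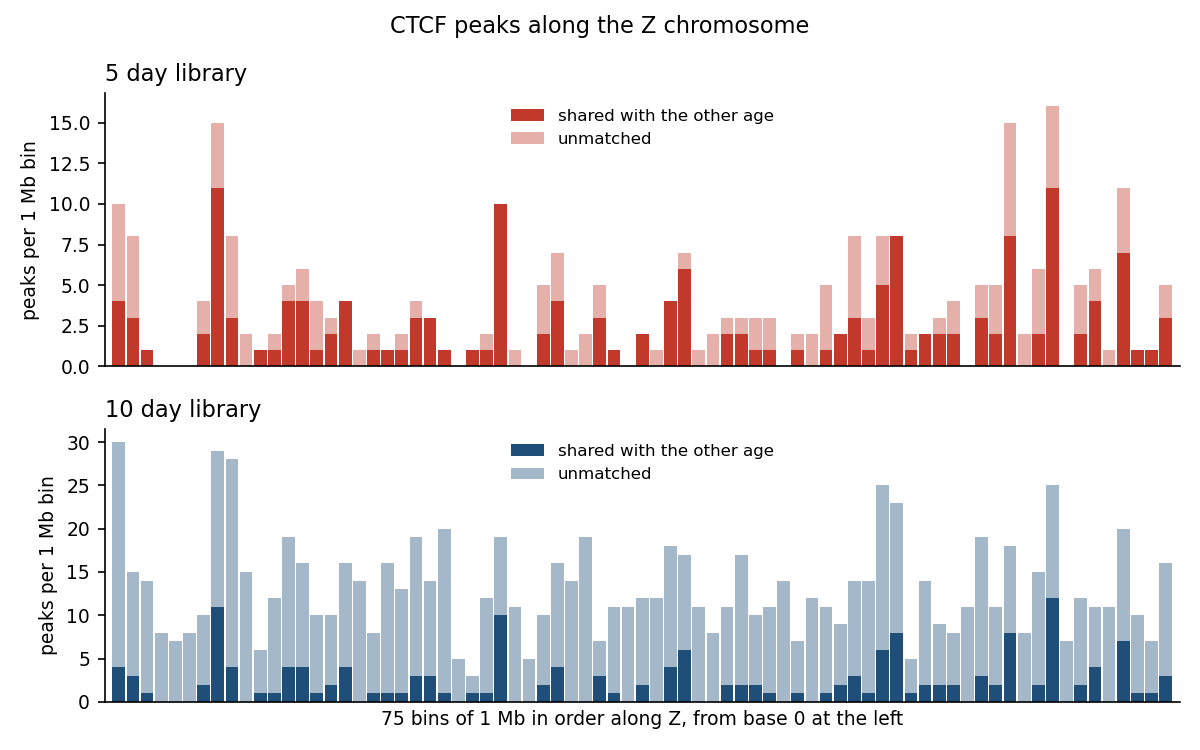
Peaks per 1 Mb bin (vertical axis, scaled separately for each library) in 75 bins in order along Z; dark parts are shared peaks and pale parts unmatched ones. The 5 day list has 9 empty bins and a highest count of 16, and the 10 day list has no empty bin and a highest count of 30, in the first bin.

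By stretches of 10 Mb, the first was fuller than the middle of Z at both ages, with and without the dense windows, while the last 3 were not fuller throughout once those windows were left out. At 5 days density was 4.8 peaks per Mb in the first 10 Mb, 2.4 to 2.9 in the 4 stretches from 10000001 to 50000000, and 4.5, 6 and 4.16 in the last 3. At 10 days it was 16.4 in the first stretch, 11.8 to 13 in the next 4, and 13.2, 13.7 and 14.0 in the last 3. With the dense windows left out, the first stretch had 3.84 peaks per Mb at 5 days and 15.5 at 10 days. The last 3 then had 3.84, 3.47 and 2.69 at 5 days, the last of them within the range of the middle, and 12.1, 11.5 and 12.1 at 10 days, within or below the range of the middle. The stretch from 20000001 to 30000000, which holds the strongest peaks, was the sparsest at 5 days, and 20 of its 24 peaks were shared.

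Long stretches of Z had no peak in the 5 day list. The longest ran from 2023164 to 6001317, 3.98 Mb, in which the 10 day list had 36 peaks with scores of 22 to 30. The next ran from 23426563 to 25754881, 2.33 Mb, where 10 day peaks numbered 19 with scores up to 42, and from 28195068 to 30518968, 2.32 Mb, with 16 peaks and scores up to 33. None of the 71 peaks that the 10 day list placed in these stretches scored above 42. In the 9 bins without a 5 day peak the 10 day list had 5 to 14 peaks, with a median of 8, against a median of 12.5 in the other 66 bins. The longest stretches without a 10 day peak were 24115844 to 25736020 (1.62 Mb), 29728657 to 30264785 (0.536 Mb) and 21868985 to 22357801 (0.489 Mb). The first 2 of these lay inside the 5 day stretches just named and held no peak of either age, and the third held a single 5 day peak of score 27. Assembly gaps and unmappable sequence were not analysed here.

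Neighbouring peaks were often closer than the mean spacing, more markedly so in the 5 day list. Independently scattered peaks would also have a median spacing below the mean. The 10 day median alone is therefore no sign of clustering. At 5 days starts were a median of 92.5 kb apart (55.0 to 116), with quartiles of 4.06 and 374 kb, and the mean was 267 kb. At 10 days the median was 47.6 kb (42.5 to 51.9), with quartiles of 15.6 and 101 kb, and the mean was 75.2 kb. Spacings under 1 kb made up 35 of 278 at 5 days (12.6%) and 45 of 992 at 10 days (4.54%). Of these close spacings, 25 at 5 days and 18 at 10 days fell within dense windows.

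Dense windows were defined as fixed windows of 100 kb that held 10 or more peaks of either list. Z had 5 of them among 746 windows, from 7800001 to 7900000 (10 peaks at 5 days and 11 at 10 days), 54900001 to 55000000 (7 and 12), 63800001 to 63900000 (11 and 9), 66200001 to 66300000 (15 and 15) and 71500001 to 71600000 (7 and 10). The next fullest windows, which missed the limit, had at most 7 peaks of a list, at 12200001 to 12300000 (1 and 7) and 55000001 to 55100000 (5 and 7). Their counts chose them and are no result. The number of windows depends on close neighbours: with peaks less than 1 kb apart counted as 1, Z had 2 dense windows in place of 5. The 5 windows span 0.671% of Z and held 17.9% of its 5 day peaks, against 4.51% of the whole 5 day list in dense windows of any sequence. At 10 days they held 5.74% of the Z peaks, against 2.96% of the whole list. These shares rest on the counts that chose the windows and are no result either. They were higher on some other chromosomes, with 18.9% of the 5 day peaks of chromosome 25 and 27.2% of the 10 day peaks of chromosome 21. Most chromosomes had lower shares than Z at each age. Per 100 Mb, Z had 6.71 dense windows and chromosomes 1 to 5 had 1.28, from 5 and 8 windows, a ratio of 5.25 with a wide interval (1.35 to 18.2). Some smaller chromosomes had more, up to 86.2 per 100 Mb on chromosome 21, and others had fewer than Z or none.

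By age, the dense windows of Z held 50 peaks at 5 days and 57 at 10 days, and the rest of Z held 229 and 936. Of the 5 windows, 2 reached the limit at 10 days only, 1 at 5 days only and 2 at both. Dense windows on the other assigned chromosomes numbered 42, of which 40 reached the limit at 10 days only, with 154 peaks at 5 days and 486 at 10 days. These counts are those that chose the windows, so the ratio of the ages inside them is a description and was not compared with that of other regions.

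Within each window the peaks were packed into a short cluster. A cluster is taken here as the fullest run of starts of either age less than 5 kb apart, followed past the edge of its window, a limit chosen after the positions were seen. The 5 clusters spanned 18.0, 16.9, 9.27, 18.7 and 13.3 kb in order along Z, 76.2 kb in all. They held 49 of the 50 peaks of the windows at 5 days and 49 of the 57 at 10 days, with 1 more 5 day and 3 more 10 day peaks just beyond a window edge. Median distances between neighbouring starts in a cluster were 788 to 1973 bp at 5 days and 829 to 1985 bp at 10 days.

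**Figure D4:**
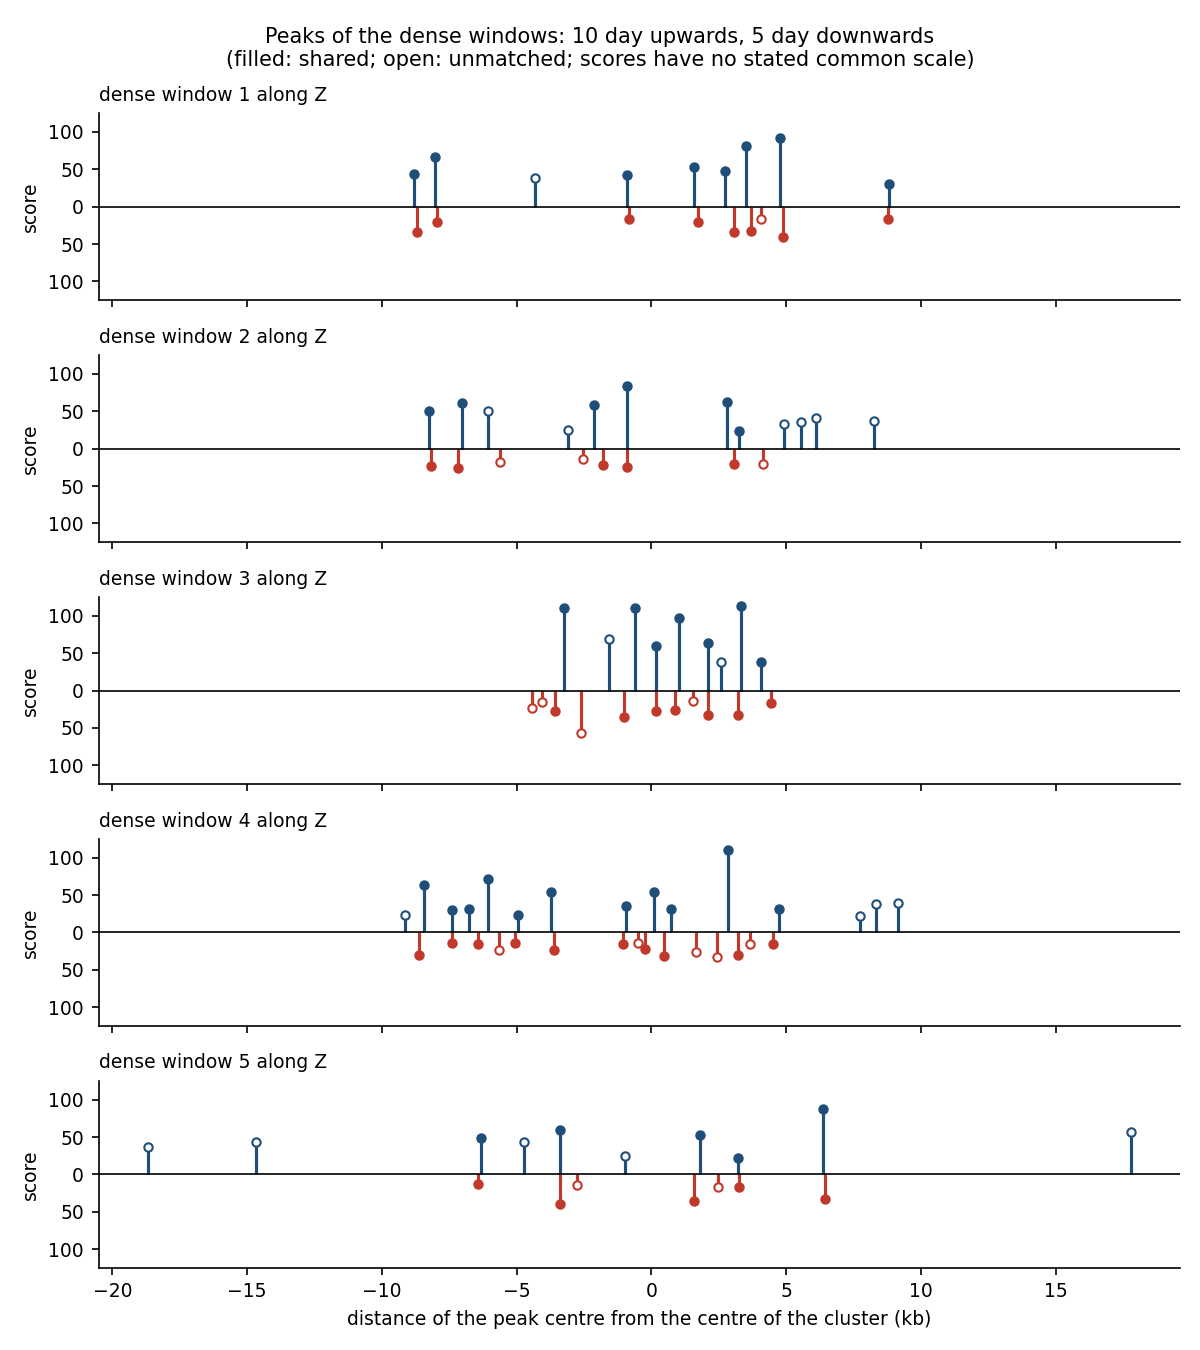
Scores (vertical axis) of the peaks in the 5 dense windows of Z and their clusters, in order along the chromosome, by distance of the peak centre from the centre of its cluster in kb (horizontal axis, peaks within 20 kb). Blue lines upwards are 10 day peaks and red lines downwards 5 day peaks, filled where shared and open where unmatched; all clusters span less than 20 kb, some past the edge of their window, and hold 7 to 15 peaks at each age.

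The tightest cluster was the third, from 63887756 to 63897022. It had 11 peaks at 5 days and 9 at 10 days, and 7 were shared at each age. Its 5 day scores ran from 14 to 57 and its 10 day scores from 38 to 113. The 7 shared pairs had scores of 27, 35, 28, 26, 33, 33 and 16 at 5 days, in order along Z, and of 111, 111, 60, 97, 63, 113 and 38 at 10 days. Every 10 day peak of this cluster was at or above percentile 89.1 of its list, and the 5 day median was at percentile 59.4. This is not particular to the cluster, since 144 of all 163 pairs on Z had the higher percentile at 10 days. It does not show a change between the ages.

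The fourth cluster, from 66282516 to 66301238, had 15 members at each age. Its 10 shared pairs scored 14 to 31 at 5 days and 24 to 111 at 10 days, and the highest 10 day score, at 66294529, faced a 5 day score of 30. The first cluster, from 7854767 to 7872783, had 8 shared pairs with scores of 16 to 41 at 5 days and 30 to 92 at 10 days, the highest at 7868446 and 7868363, respectively.

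The second cluster, from 54899556 to 54916461, had 5 shared members among 8 in the 5 day list and 6 among 12 in the 10 day list. Its last 4 peaks at 10 days, from 54912733 on, scored 33 to 41 and had no counterpart. A further run of 5 shared pairs, noted after its values were seen, stood in the next window, with starts between 55043554 and 55052394 and 5 day scores of 21 to 38 and 10 day scores of 30 to 100. The fifth cluster, from 71518647 to 71531921, had 7 peaks at each age, and 5 of each were shared.

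Clustered peaks were of middle rank at 5 days and of high rank in the 10 day list. Percentiles of lists of different length do not show a change between the ages. At 5 days peaks inside the windows had a median score of 22, at percentile 49.1 (interval of the median 33.2 to 57.6), and peaks outside a median of 20, at percentile 43.7 (37.1 to 49.1). At 10 days peaks inside had a median of 44, at percentile 91.7 (88.4 to 93.8), and peaks outside a median of 24, at percentile 40.7 (40.7 to 51.0). The intervals overlap at 5 days and lie apart at 10 days. They take neighbouring peaks of 5 windows as independent and do not measure the spread between windows. By window, the 10 day median ran from percentile 82.4 in the fourth to 95.9 in the third. The 10 day difference was also seen among unmatched peaks, at percentile 86.7 (51.0 to 90.6) for the 21 inside and 40.7 for the 805 outside. Among shared peaks it was small, with overlapping intervals. Those peaks stood at percentile 94.2 (91.7 to 95.2) for the 36 inside and 90.2 (86.7 to 92.6) for the 131 outside. The contrast of all 10 day peaks thus also reflects that 36 of 57 inside and 131 of 936 outside were shared. None of the 5 highest peaks of Z at either age lay in a dense window.

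In the 10 day list the shared percentage was higher inside the dense windows of Z than outside them, a contrast set in part by the counts that chose the windows. Of the 57 peaks inside at 10 days 36 were shared, 63.2% (49.3 to 75.6), and of the 936 outside 131 were, 14.0% (11.8 to 16.4). In dense windows of the other assigned chromosomes 22.2% of the 10 day peaks (18.6 to 26.2) and 69.5% of the 5 day peaks (61.6 to 76.6) were shared. The 10 day share there is bounded by the counts that chose those windows, 154 peaks at 5 days against 486 at 10 days. It was not compared with that of Z. The 10 day shares of Z are limited likewise, by 50 peaks at 5 days against 57 at 10 days inside. Outside, 229 peaks at 5 days stood against 936 at 10 days, so most 10 day peaks there could not be shared. At 5 days on Z 34 of 50 peaks inside were shared, 68.0% (53.3 to 80.5), and 129 of 229 outside, 56.3% (49.6 to 62.9), with overlapping intervals. When an overlap of at least 50% of both peaks was asked for, the shares inside fell below those outside at 5 days (48.0% against 55.0%) and stayed above them at 10 days (42.1% against 13.5%).

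In a cluster much of the sequence lay within reach of a peak of the other age. Of all start positions in a cluster, 33.5 to 76.4% would place a 10 day peak on a 5 day peak, against 0.291% over the whole of Z. For a 5 day peak on a 10 day peak the values were 36.1 to 75.7% in the clusters and 1.05% over Z. Both were highest in the third cluster. The pairs inside the dense windows were also less exact. Their starts lay a median of 136 bp apart (interval of the median 89 to 195) in 34 pairs, against 31 bp (22 to 38) in the 129 pairs outside. Starts within 100 bp of each other made up 38.2% of the pairs inside and 92.2% of those outside.

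**Figure D5:**
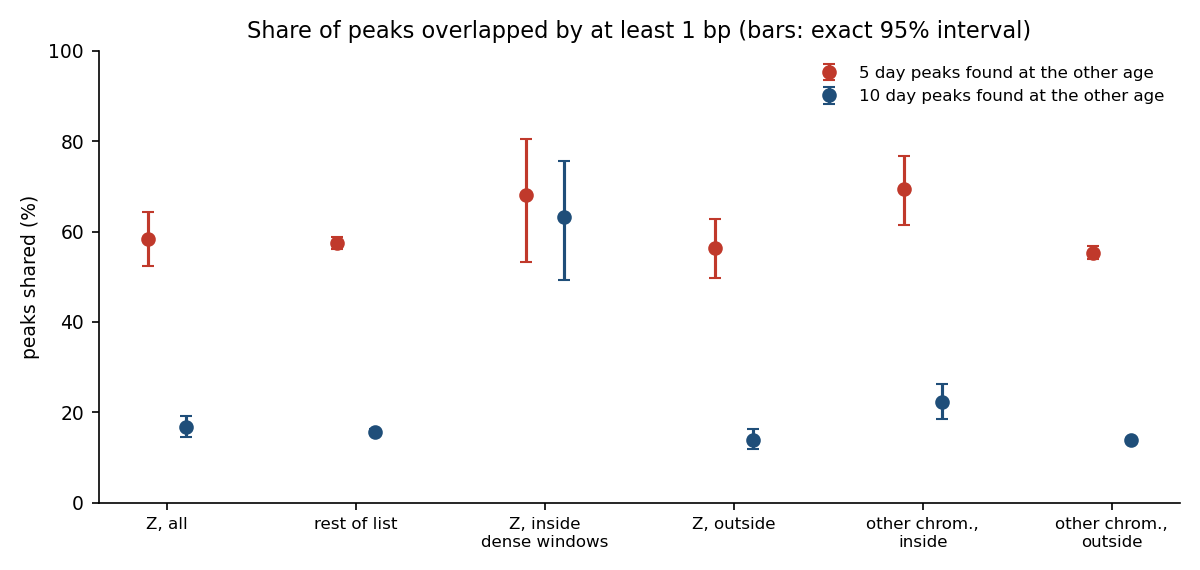
Percentage of peaks overlapped by at least 1 bp by a peak of the other age (vertical axis) for Z, the rest of each list, and inside and outside dense windows on Z and on the other assigned chromosomes; bars are exact 95% intervals. The 10 day share is 63.2% inside the dense windows of Z, 22.2% inside those of other chromosomes and 14.0% and 13.9% outside them. The counts that chose the windows limit these 10 day shares, so their differences are no result.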

How the data were processed

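CTCF-bound chromatin from 2 libraries, 1 per age, was read on a Genome Analyzer, per the labels' protocols. The authors deposited 1 headerless peak list of 6 columns per library, with a whole-number score per peak in column 5. Not given in the sources used here are the meaning and scaling of this score, the aligner, peak caller and threshold, any input library, and the build. No genome of the files' build was at hand, so no gene, motif or sequence was assigned to a peak. Libraries were grouped by the age label.

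Peaks were assigned to fixed bins of 1 Mb and windows of 100 kb by their start. Sharing needed an overlap of at least 1 bp. Shares have Clopper-Pearson intervals, ratios of counts or densities conditional binomial intervals, and medians order-statistic intervals, all at 95%. Computation was in Python 3.11.15 with scipy 1.17.1, pandas 2.3.3, numpy 2.4.6 and, for figures, matplotlib 3.10.9, and the functions were tested on simulated data. Named are the 5 highest and 5 highest unmatched peaks and 5 fullest bins per age, the 3 longest empty stretches, all dense windows and identical positions. The members, this rule and the alternatives were chosen with earlier results of these data known.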

Additional observations from a re-analysis of the deposited data

Results flagged for a closer look

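Sequence outside Z that belongs to the sex chromosomes carried a few peaks. Unplaced sequence assigned to W, the chromosome that only females carry, had 4 peaks at 10 days, with scores of 22 to 26. They were noted because they come from data outside the comparisons and exceed the 3 counts that a count of 0 allows. That limit is no test of a count of 4. These are 4 of 21358 peaks, with scores at or near 22, the lowest of the 10 day list. None of the 21358 peaks of that list stood on assembled W. The 5 day list had 0 of 5830 peaks on W or on its unplaced sequence, which allows a share of up to 0.0515%. Unplaced sequence of Z had 2 peaks at 10 days, with scores of 23 and 30, and none at 5 days. Whether these counts bear on the sex of the animals was not tested.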

How the results depend on the processing

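Of 49 alternatives, 31 left the value within its interval or, for counts, within 1.5 times, and 18 moved it. Some moves follow largely from the alternative itself, such as those of the counts in the upper 50% of the scores. The tally is therefore no measure of stability. The density ratio of Z to chromosomes 1 to 5 at 10 days stayed between 0.725 and 0.758 in the alternatives run for it. Limiting the length of the 10 day list was not among them. In the highest 10 day score class alone the ratio was 0.945 (0.814 to 1.09), so it was not alike across scores. At 5 days it was 0.971 among the 50% of peaks that score highest and 0.937 without the dense windows, so its direction was not fixed, and each of its intervals includes 1. That upper 50% included 128 and 502 Z peaks at 5 and 10 days. Widening peaks by 500 bp on each side gave a 5 day share of 66.7% on Z. The share of the whole list at this setting was not computed. Limiting the 10 day list to about the length of the 5 day list, with ties kept, left 6731 peaks against 5830. Of the 6731, 304 stood on Z. The shares on Z were then 48.7% at 5 days and 45.1% at 10 days. The ratio of 10 day to 5 day peaks on Z was 1.09, a value near 1 that follows largely from the cut. Without the dense windows the ratio of 10 day to 5 day peaks was 4.09 and the median 5 day spacing 127667 bp. Counting peaks less than 1 kb apart as 1 gave a 5 day spacing of 117131 bp, a fullest 5 day bin of 10 peaks and 2 dense windows in place of 5. Overlap of 50% of both peaks gave shares inside dense windows of 48.0% and 42.1% at 5 and 10 days. Bins shifted by 500 kb left 16 bins empty at 5 days and 1 at 10 days. Ranking among assigned chromosomes put the median 10 day percentile at 52.2. The cause of these shifts was not tested beyond what each alternative removes. No paired analysis was possible because there is a single library per age, which also means that none can be omitted. As depth is unknown, absence from a list is not absence of binding.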
